A study of Mus musculus with 4 samples.

Results

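The genes described here are the 2 corticosteroid receptors and 8 genes listed as their targets, chosen by name: Nr3c1, Nr3c2, Fkbp5, Sgk1, Tsc22d3, Zbtb16, Plin4, Cdkn1a, Sult1a1 and Pdzrn3. They are 10 of the 20655 named genes measured in mouse prefrontal cortex. The array carried 25 probes for them among 56605 probes in all, and 19 of the 25 were well above background on all 4 arrays, so that every gene kept at least 1 probe. The 6 others were 1 of 3 probes for Fkbp5, 1 of 2 for Sgk1, 1 of 3 for Tsc22d3, 2 of 3 for Cdkn1a and 1 of 4 for Pdzrn3.

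Corticosterone, the main glucocorticoid of the mouse, acts in neurons and glia through the glucocorticoid receptor and, with higher affinity, through the mineralocorticoid receptor. Both receptors wait in the cytoplasm in complexes with heat shock protein chaperones and immunophilins, move to the nucleus once hormone is bound, and attach to DNA at paired or single copies of a short DNA element. In forebrain the mineralocorticoid receptor is best known from the hippocampus, and the glucocorticoid receptor is widespread in neurons, glia and vessels.

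The study crossed diet with genotype in B6J mice at 3 months of age. The groups were wild-type mice on starch, which served as the control, wild-type mice on sucrose, mice heterozygous for Glo1 on starch, and mice heterozygous for Glo1 on sucrose. Each diet was given for about 70 days from weaning at postnatal day 21. Glo1 encodes glyoxalase 1, which removes the reactive sugar product methylglyoxal, and the kind of mutant allele was not given in the sources used here. For each group the total RNA of 3 mice was pooled and hybridised to 1 one-colour array, so the mice of a group are not separate measurements and no pairwise comparison of arrays has a replicate error or a p-value. The p-values given below come from 1 fit over all 4 arrays. In pooled bulk tissue, fewer cells of a type and less RNA per cell cannot be told apart.

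The 75th percentile of the processed signal lay between 1780 and 1929 intensity units on the 4 arrays, and between 77.6% and 80.2% of the spots were well above background, with 0 saturated spots. A level below is a probe's signal as a multiple of that array's 75th percentile, and a change is a log2 difference of levels. Glo1 had less signal in heterozygous than in wild-type mice under either diet, by a log2 difference of -0.56 for starch-fed and -0.86 for sucrose-fed mice, with all 3 of its probes going the same way. All 8 listed markers of cortical excitatory neurons were well above background on every array, and their summed level was 84.6 on wild-type starch, 111 on wild-type sucrose, 100.01 on heterozygous starch and 108 on heterozygous sucrose. The arrays shared 1 slide with 1 position per group, so a position effect and a group effect cannot be told apart.

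The arrays differed in markers of brain tissue other than cortex and of blood. The summed level of 8 choroid plexus markers was 1.20 on wild-type starch, 2.43 on wild-type sucrose, 1.27 on heterozygous starch and 71.2 on heterozygous sucrose. Without Ttr, the brightest of them, it was 0.943, 1.01, 1.17 and 12.5. The summed level of 10 hippocampal markers was 15.6, 16.6, 16.1 and 22.3 in the same order. Without Wfs1, the brightest of these, the hippocampal sum was 7.05, 6.98, 6.81 and 12.8. The 8 striatal markers summed to 15.02, 26.9, 22.8 and 14.2. The 5 blood markers summed to 128, 62.5, 107 and 70.1, so both sucrose arrays were below both starch arrays. Without Hba-a1, the brightest blood marker, the sum was 13.8, 4.40, 9.76 and 5.66. The 10 immediate early genes, at a sum of 64.2, 44.3, 73.5 and 40.4, were also lower on sucrose in both genotypes. The sum of the 6 endothelial markers was 31.3, 23.0, 28.0 and 23.0, most of it from Ly6c1, and without that gene it was 12.18, 10.97, 12.16 and 10.93. The summed level ranged from 47.3 to 52.4 over 6 astrocyte markers, from 28.2 to 31.3 over 6 microglial markers and from 77.8 to 86.2 over 7 oligodendrocyte markers. The 6 meningeal fibroblast markers summed to 90.5 to 100.01, nearly all of it from Ptgds, and the other 5 summed to between 7.43 and 10.2. No marker on these lists was at 0, since each was well above background on all 4 arrays.

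Promoters were read because the members other than the receptors are listed as targets of receptors that attach to DNA. RefSeq entries of assembly GRCm38.p6 were present for 8 of the 10 members, as 16 promoters. The 250 bases before each start were searched on both strands for the short element AGAACA and for the paired element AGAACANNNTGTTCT, which holds the short element on each strand, so a paired match is also counted as short matches. The paired element was found in 1 of the 16, a promoter of Sgk1, and in 3 of 32851 mouse promoters (0.00913%). The short element was found in 5 of the 16, of which 3 were among the 6 promoters of Sgk1, and in 16.1% of all promoters. By gene it was found in 3 of the 8 members (Sgk1, Tsc22d3 and Sult1a1) and in 4912 of 27025 mouse genes. The sequences printed here, with every match in capitals, are the Sgk1 promoter with the paired element (chr10:21993640-21993889, plus strand), 1 of 6 for this gene, the Sult1a1 promoter with 2 separate short elements (chr7:126676419-126676668, minus strand), and the promoter of Plin4 (chr17:56109783-56110032, minus strand), the member with the largest change, in which neither set of letters was found. Each is read 5′ to 3′ and ends at the base before the start. A match is a description of letters, and receptor binding was not measured.
Sgk1: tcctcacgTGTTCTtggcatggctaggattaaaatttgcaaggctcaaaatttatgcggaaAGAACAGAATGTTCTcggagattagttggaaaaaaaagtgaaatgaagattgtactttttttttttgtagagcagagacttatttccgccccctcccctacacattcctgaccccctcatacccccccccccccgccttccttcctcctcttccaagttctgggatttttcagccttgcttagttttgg
Sult1a1: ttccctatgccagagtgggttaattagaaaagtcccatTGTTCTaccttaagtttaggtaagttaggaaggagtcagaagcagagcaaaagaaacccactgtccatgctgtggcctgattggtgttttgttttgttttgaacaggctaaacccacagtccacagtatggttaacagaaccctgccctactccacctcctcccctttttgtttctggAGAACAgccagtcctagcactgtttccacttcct
Plin4: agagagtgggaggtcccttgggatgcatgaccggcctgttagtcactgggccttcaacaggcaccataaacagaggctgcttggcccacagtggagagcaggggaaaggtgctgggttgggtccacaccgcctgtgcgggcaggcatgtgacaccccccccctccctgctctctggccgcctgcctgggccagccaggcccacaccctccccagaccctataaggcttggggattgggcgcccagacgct

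**Figure D1:**
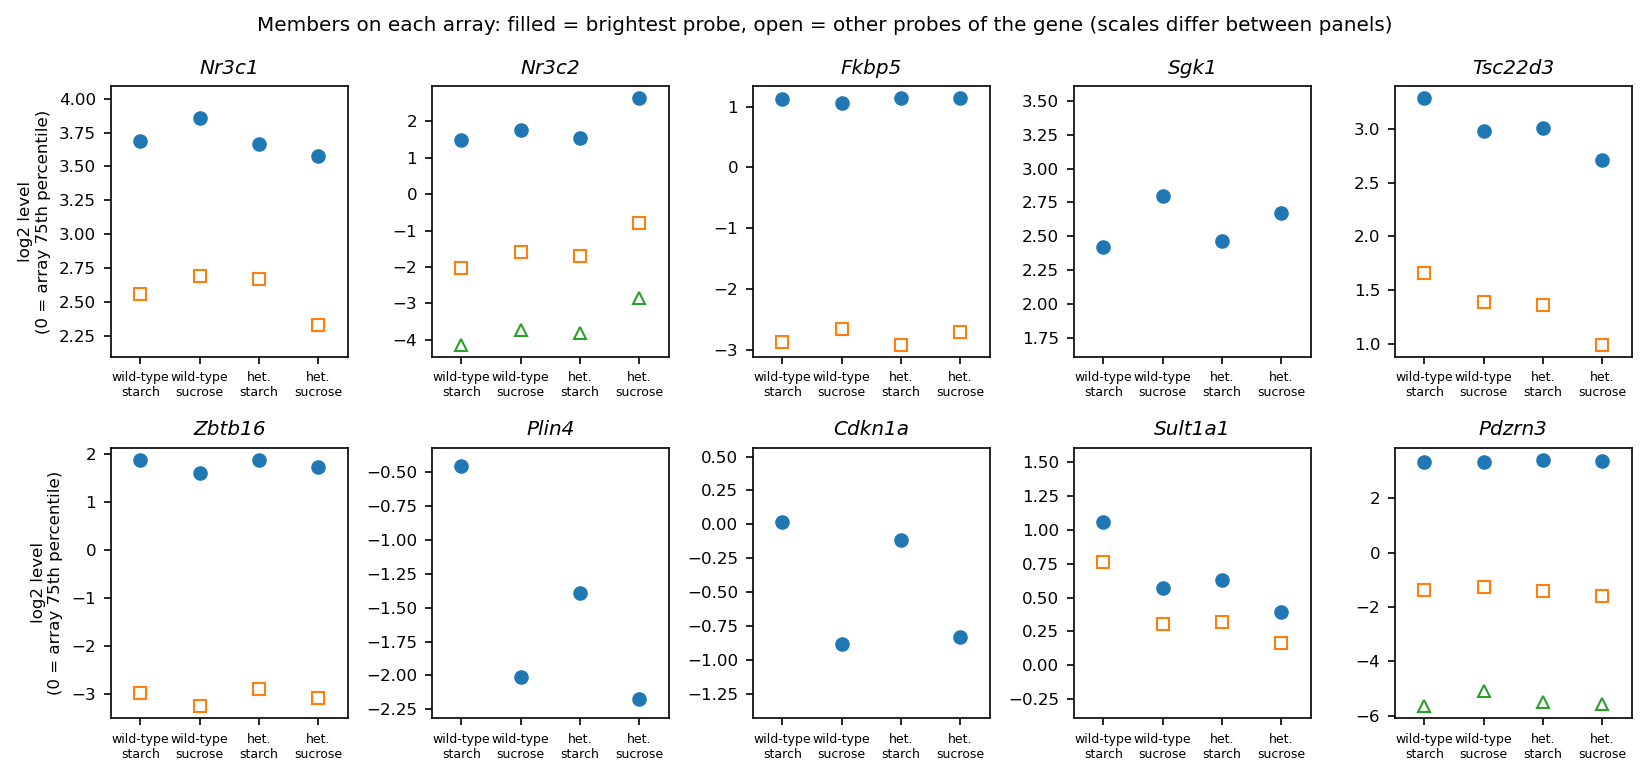
Level of each member on the 4 arrays, as log2 of the signal over the array's 75th percentile (vertical axis, with a scale of its own in each panel); each point is 1 probe on 1 array of pooled RNA, filled for the brightest probe. Nr3c2 stands high on the heterozygous sucrose array with all 3 probes, and Plin4 and Cdkn1a stand lower on both sucrose arrays than on both starch arrays.

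Sucrose and starch differed by 1.5-fold or more for 2 of the 10 members in wild-type mice, both lower on sucrose (Plin4 and Cdkn1a), where 5.93% of all genes passed that fold in either direction. In heterozygous mice 3 of 10 passed, Plin4 and Cdkn1a lower and Nr3c2 higher on sucrose, against 5.57% of all genes. Between genotypes, 1 member passed on starch (Plin4, lower in heterozygous mice, background 3.97%) and 1 on sucrose (Nr3c2, higher in heterozygous mice, background 4.58%). The members were chosen with earlier results of these data known, so the counts are no measure of an excess over all genes. For diet the members' median change was -0.17 in wild-type mice and -0.12 in heterozygous mice, where the median over all genes was -0.00 and 0.00. On sucrose 7 of 10 members were below 0 in wild-type and 8 of 10 in heterozygous mice. Those counts include Fkbp5 (-0.07 and -0.00) and Pdzrn3 (-0.01 and -0.03), whose changes were smaller than the spot SD given below.

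Each change below rests on single spots of a probe. The SD of a difference of single spots, from probes printed repeatedly on the same array at like brightness, was between 0.061 and 0.115 for the members' brightest probes. That SD covers spot noise within an array and not differences between mice, pools or hybridisations. An additive fit of diet and genotype with limma, which takes the interaction as error and has 1 residual degree of freedom, called 0 of 42094 probes (0%) for diet and 0 (0%) for genotype after Benjamini-Hochberg adjustment, against 3704 (8.8%) and 2704 (6.42%) at an unadjusted p under 0.05. The smallest adjusted p over all probes was 0.532 for diet and 0.733 for genotype.

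**Figure D2:**
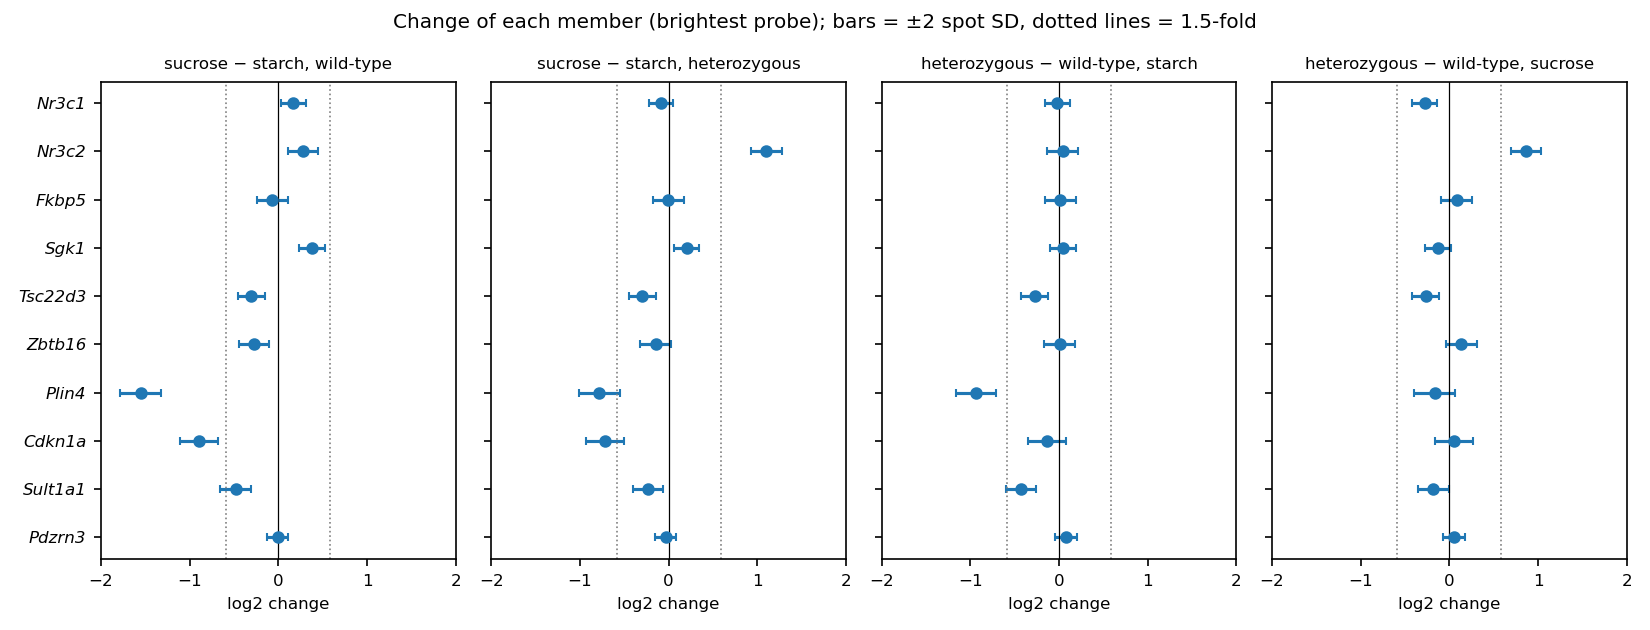
Log2 change of each member's brightest probe in the 4 comparisons (horizontal axis), with bars of 2 spot SD on either side and dotted lines at 1.5-fold. Plin4 and Cdkn1a lie below the lower line for diet in both genotypes, and Nr3c2 lies above the upper line on the comparisons that hold the heterozygous sucrose array.

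Nr3c1 encodes the glucocorticoid receptor. Its brightest probe, on chromosome 18, had a level of 12.9 on wild-type starch, 14.5 on wild-type sucrose, 12.7 on heterozygous starch and 11.9 on heterozygous sucrose. The 4 arrays lay within 0.28 of each other on the log2 scale, with wild-type sucrose highest and heterozygous sucrose lowest. The diet change was 0.17 in the wild type and -0.09 in the heterozygotes, with a spot SD of 0.07. The second probe gave 0.13 and -0.34, the same signs, and on sucrose both probes were lower in heterozygous than in wild-type mice, by log2 changes of -0.28 and -0.36. No change of this receptor reached 1.5-fold in any of the 4 comparisons.

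Nr3c2 encodes the mineralocorticoid receptor, which binds corticosterone at basal hormone levels. Its brightest probe (A_66_P110473, chr8:79768704-79768763, mm9) had a level of 2.81 on wild-type starch, 3.41 on wild-type sucrose, 2.89 on heterozygous starch and 6.22 on heterozygous sucrose. The heterozygous sucrose array stood apart, and the other 3 lay close together. In heterozygous mice the sucrose signal was 2.15 times the starch signal, a log2 change of 1.103, and 223 of 20655 genes were as high or higher in that comparison. Of the probes in the brightest quartile, to which it belongs, 0.912% passed 1.5-fold there. In wild-type mice the diet change was 0.28.

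The 2 dimmer Nr3c2 probes showed the same order. The diet change in heterozygous mice was 0.89 for A_66_P132841 and 0.95 for A_51_P377914, where 2.53% and 5% of their quartiles passed 1.5-fold, and in wild-type mice it was 0.43 and 0.39. Heterozygous exceeded wild-type mice on sucrose by 0.87, 0.80 and 0.88 with the 3 probes, and on starch by 0.04, 0.34 and 0.33. The probes lie in brightness quartiles 1, 2 and 3, of which 0.475%, 2.04% and 4.39% passed 1.5-fold for genotype on sucrose. Subtracting the wild-type diet change from the heterozygous one gives an interaction of 0.82 for the brightest probe. An interaction past 1.5-fold in either direction was seen for 8.45% of all genes and for 1.38% of the probes in the same brightness quartile, the brightest. It was 0.46 and 0.56 for the dimmer probes, short of 1.5-fold. Limma's additive fit gave an adjusted p between 0.532 and 0.570 for diet over the 3 probes.

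The array on which Nr3c2 was high was also the array with the choroid plexus and hippocampal signal. All 8 of 8 choroid plexus markers were 2-fold or more higher on heterozygous sucrose than on heterozygous starch and than on wild-type sucrose. Of 10 hippocampal markers, 7 were 2-fold or more higher in each of these comparisons, 6 of them the same genes. Their medians were 1.85 and 1.75, and 10 and 9 of 10 were above 0. Of all genes, 1.29% and 1.37% were 2-fold or more higher in the same comparisons. Prox1, a transcription factor of dentate granule cells, had levels of 0.241, 0.293, 0.274 and 1.01 in the order used above. All 8 of 8 striatal markers were below 0 in both comparisons, with medians of -0.86 for diet in heterozygous mice and -1.26 for genotype on sucrose. Of 6 astrocyte markers, 2 and 3 were above 0 in the same order, with medians of -0.11 and 0.08 and Gfap highest at 0.35 and 1.16. Of 6 meningeal fibroblast markers, 3 and 5 were above 0, with medians of 0.07 and 0.19 and Dcn highest at 0.81 and 0.95. The part of these tissue signals in the Nr3c2 change was not tested.

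Fkbp5 encodes FKBP51, an immunophilin that lowers hormone binding by the receptor and is itself strongly induced by glucocorticoids. Its brightest probe (chr17:28536060-28536119, mm9) had a level of 2.18 on wild-type starch, 2.08 on wild-type sucrose, 2.20 on heterozygous starch and 2.20 on heterozygous sucrose. The 4 arrays did not differ beyond the spot SD of 0.0865. The diet change was -0.07 in the wild type and -0.00 in the heterozygotes, and the dimmer probe A_52_P481493 gave 0.22 and 0.21, so the sign for diet depended on the probe. The third probe, which did not pass the filter, was well above background on both sucrose arrays and on neither starch array. Against the lowest signal called well above background on the starch array, its sucrose signal was 1.26-fold in heterozygous and 0.981-fold in wild-type mice.

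Sgk1 encodes a kinase that both receptors induce and that regulates ion channels and transporters. Its brightest probe (chr10:21719390-21719449, mm9) had a level of 5.36 on wild-type starch, 6.96 on wild-type sucrose, 5.53 on heterozygous starch and 6.37 on heterozygous sucrose. Both sucrose arrays were above both starch arrays, by 0.38 in the wild type and 0.20 in the heterozygotes, with a spot SD of 0.07. In the wild-type comparison 1354 of 20655 genes were as high or higher. A second, dim probe (chr10:21618550-21618609, mm9), assigned to another transcript, did not pass the filter and was well above background on the sucrose arrays only. Its signal was 11.2, 22.8, 12.1 and 24.3 intensity units in the order used above, with a spot SD of 0.188. Against the lowest signal called well above background on the starch array, the sucrose signal was 1.83-fold in wild-type and 1.88-fold in heterozygous mice. A probe that is not called can lie above that lowest signal, so such ratios are not bounds on a change.

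Tsc22d3 encodes GILZ, a leucine zipper protein induced by glucocorticoids. Its brightest probe (chrX:137074094-137074153, mm9) had a level of 9.73 on wild-type starch, 7.88 on wild-type sucrose, 8.05 on heterozygous starch and 6.55 on heterozygous sucrose. The control array was highest and the array with both sucrose and the Glo1 mutation lowest. The diet change was -0.30 in both genotypes and the genotype change -0.27 on both diets, each larger than 2 spot SD, since the SD was 0.0755. The second probe gave diet changes of -0.27 and -0.36 and genotype changes of -0.31 and -0.40. None of these reached 1.5-fold, and limma's adjusted p for diet was 0.554 for the brightest probe.

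Zbtb16 encodes PLZF, a zinc finger repressor with strong glucocorticoid induction in many cells. Its brightest probe (chr9:48462419-48462478, mm9) had a level of 3.67 on wild-type starch, 3.03 on wild-type sucrose, 3.68 on heterozygous starch and 3.32 on heterozygous sucrose. The sucrose arrays were below the starch arrays, by a log2 change of -0.28 in the wild type and -0.15 in the heterozygotes, and the second probe gave -0.26 and -0.17. The genotypes lay within 0.01 of each other on starch and 0.13 on sucrose.

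Plin4 encodes perilipin 4, a coat protein of lipid droplets. Its single probe (A_51_P495780, chr17:56240055-56240114, mm9) had a level of 0.728 on wild-type starch, 0.248 on wild-type sucrose, 0.381 on heterozygous starch and 0.221 on heterozygous sucrose. Both sucrose arrays were below both starch arrays, and the control array was the highest of the 4. In wild-type mice the starch signal was 2.93 times the sucrose signal, a log2 change of -1.55, and 65 of 20655 genes were as low or lower. In heterozygous mice the change was -0.78, or 1.72-fold lower on sucrose, with 197 genes as low or lower. Of the probes in its brightness quartile, the second of 4, 3.11% passed 1.5-fold for diet in wild-type mice and 2.53% in heterozygous mice.

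On starch Plin4 was also lower in heterozygous than in wild-type mice, by a log2 change of -0.94, where 2.04% of that quartile passed 1.5-fold, while on sucrose the genotypes differed by -0.17. The diet change in wild-type mice and the genotype change on starch share the wild-type starch array. Glo1 (brightest probe at chr17:30729951-30730010, mm9) is on the same chromosome as Plin4, Fkbp5 and Cdkn1a. The part of DNA linked to the mutant allele in their genotype changes was not tested. For genotype on starch 5 of 5 blood markers were below 0 (median -0.46). So were 5 of 6 microglial markers (median -0.14) and 4 of 6 endothelial markers (median -0.19). Above 0 were 7 of 8 striatal markers (median 0.69) and 9 of 10 immediate early genes (median 0.25). The part of these marker signals in the Plin4 value was not tested. The interaction was 0.77, so the diet change was less negative in heterozygous mice, and 753 of 20655 genes had an interaction as high or higher. The spot SD was 0.115. In the additive fit the diet coefficient was -1.17, with an unadjusted p of 0.00889 and an adjusted p of 0.532 from limma.

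Cdkn1a encodes p21, an inhibitor of cyclin-dependent kinases that glucocorticoids and p53 both induce. Its brightest probe (A_51_P363947, chr17:29237377-29237436, mm9) had a level of 1.01 on wild-type starch, 0.542 on wild-type sucrose, 0.922 on heterozygous starch and 0.561 on heterozygous sucrose. The starch arrays were alike, the sucrose arrays were alike, and the pairs did not overlap. The sucrose signal was 1.87-fold lower in wild-type and 1.64-fold lower in heterozygous mice, log2 changes of -0.90 and -0.72, with 268 and 243 of 20655 genes as low or lower. The genotypes differed by -0.13 on starch and 0.05 on sucrose.

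Plin4 and Cdkn1a were the 2 members at 1.5-fold or more lower on sucrose in both genotypes, as were 166 of all 20655 genes (0.804%). The diet coefficient of Cdkn1a was -0.81, with an unadjusted p of 0.00239 and an adjusted p of 0.532 from limma. A dim Cdkn1a probe (A_55_P1976204) was well above background on 3 arrays and not on heterozygous sucrose. Its heterozygous starch signal was 1.502 times the lowest signal called well above background on heterozygous sucrose. On wild-type sucrose that probe was not lower than on wild-type starch, with a log2 difference of 0.06. The third Cdkn1a probe was well above background on the wild-type arrays only and differed by -0.15 between them.

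Markers of blood and the immediate early genes differed with diet in the same direction as Plin4 and Cdkn1a, and as the smaller changes of Tsc22d3, Zbtb16 and Sult1a1. All 5 of 5 blood markers were below 0 for diet whatever the genotype, and their medians were -1.58 (wild-type) and -0.75 (heterozygous). All 10 of 10 immediate early genes were below 0 in both, with medians of -0.57 and -0.94. Of 6 endothelial markers, 3 were below 0 in wild-type and 4 in heterozygous mice, with medians of -0.16 and -0.07. Of the cell type lists, 6 of 6 astrocyte markers were below 0 for diet in the wild type (median -0.17) and 4 of 6 in the heterozygotes (median -0.11). Of 6 microglial markers 4 and 5 were below 0 (medians -0.11 and -0.07), and of 7 oligodendrocyte markers 6 and 3 (medians -0.08 and 0.03). Of 8 markers of cortical excitatory neurons, 8 and 5 were above 0, with medians of 0.29 and 0.15. Of 8 striatal markers, 8 were above 0 in the wild type (median 0.96) and 0 in the heterozygotes (median -0.86). The part of blood, vessel, cell type, striatal or neuronal activity signal in the changes of these 5 members was not tested.

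**Figure D3:**
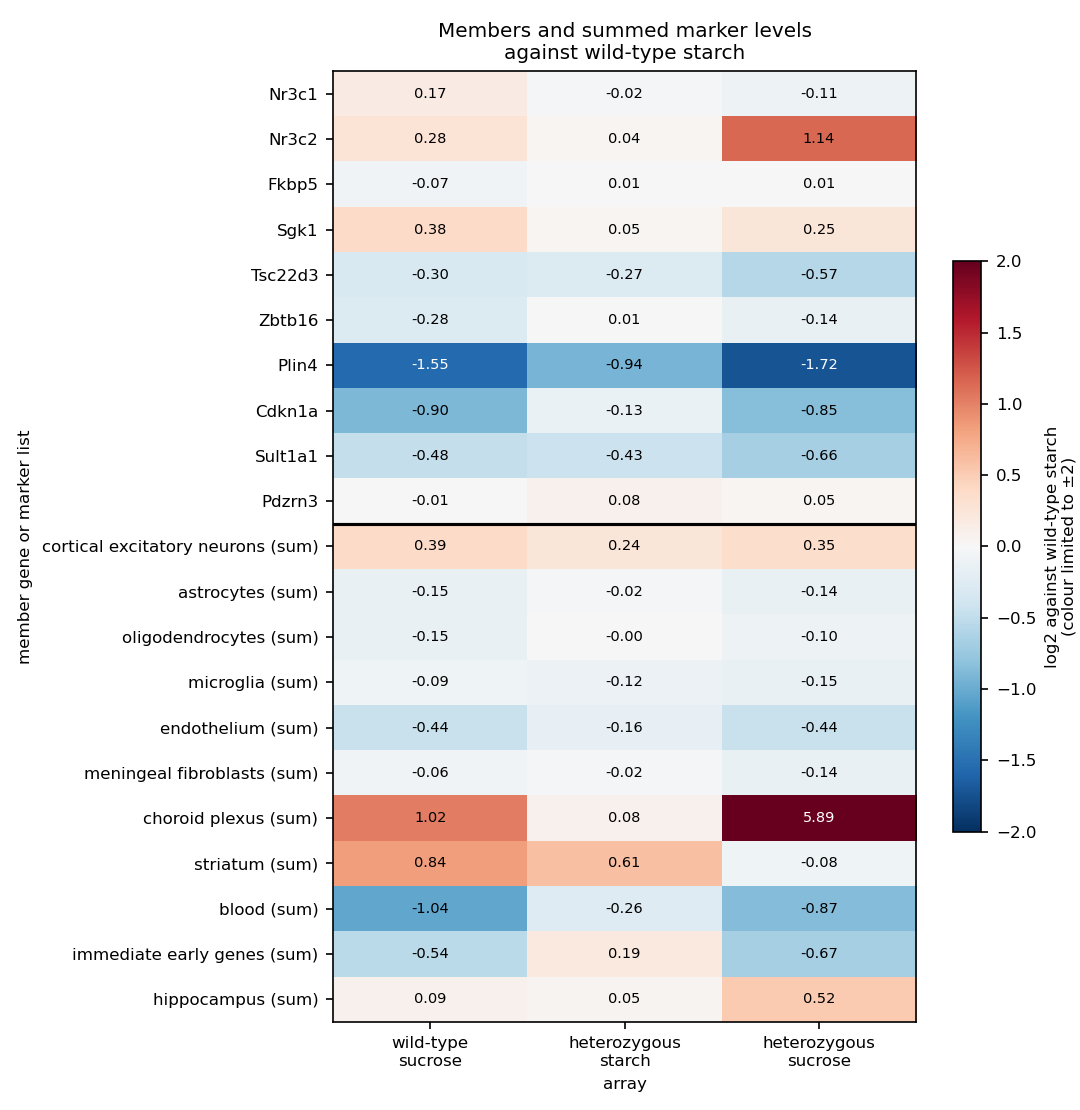
Log2 level of each member (above the line) and of each summed marker list (below it) on 3 arrays against the wild-type starch array, written in each cell, with colour limited to 2 in size. Nr3c2 (1.14), the choroid plexus sum (5.89) and the hippocampal sum (0.52) have their highest value on heterozygous sucrose, and Plin4, Cdkn1a and the blood sum (-1.04 and -0.87) are low on both sucrose arrays.

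Sult1a1 encodes a phenol sulfotransferase, induced by glucocorticoids in liver and other tissues. Its brightest probe (chr7:133816605-133816664, mm9) had a level of 2.08 on wild-type starch, 1.49 on wild-type sucrose, 1.54 on heterozygous starch and 1.31 on heterozygous sucrose. The control array was above the other 3. Its diet change was -0.48 in the wild type and -0.23 in the heterozygotes, and the genotype change -0.43 on starch and -0.18 on sucrose, with a spot SD of 0.0865. The second probe overlaps the first by a few bases and gave -0.45, -0.16, -0.44 and -0.14.

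Pdzrn3 encodes an E3 ubiquitin ligase with PDZ domains. Its brightest probe (chr6:101099946-101100005, mm9) had a level of 10.1 on wild-type starch, 10.04 on wild-type sucrose, 10.7 on heterozygous starch and 10.4 on heterozygous sucrose. All 4 comparisons of this probe lay within 0.08 of 0. The dimmer probes gave diet changes of 0.13 and 0.55 in the wild type and -0.18 and -0.08 in the heterozygotes, so for diet its probes disagreed in sign in wild-type mice, where the brightest was at -0.01 with a spot SD of 0.061. For genotype they gave -0.02 and 0.16 on starch and -0.33 and -0.47 on sucrose, against 0.08 and 0.05 for the brightest probe, so the signs also disagreed there.

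The members with more than 1 passing probe differed in how far their probes went together. For Nr3c2, Tsc22d3, Zbtb16 and Sult1a1 every passing probe had the same sign for diet in both genotypes, and for Nr3c1 too, with opposite signs in the 2 genotypes. For diet the probes differed in sign for Fkbp5 in both genotypes and for Pdzrn3 in the wild type. The changes past 1.5-fold of Plin4 and Cdkn1a rest on 1 passing probe each.

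Genes that act around the receptors were described from lists of measured genes. Among 13 receptor chaperones and cofactors, 0 passed 1.5-fold in any of the 4 comparisons, against 5.93%, 5.57%, 3.97% and 4.58% of all genes. On sucrose 8 of 13 were below 0 in wild-type mice, with a median of -0.08, and 11 of 13 in heterozygous mice, with a median of -0.14. Stip1, the cochaperone that hands the receptor from Hsp70 to Hsp90, had the largest mean diet change of this list, with levels of 3.12, 2.26, 2.70 and 2.11 in the order used above and changes of -0.46 and -0.36.

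Of 7 genes of steroid supply, 5 were measured and 1 passed 1.5-fold, for diet in heterozygous mice (background 5.57%). Hsd11b1, the enzyme that regenerates active glucocorticoid inside cells, had levels of 1.23, 1.38, 1.01 and 1.73, a diet change of 0.16 in the wild type and of 0.78 in the heterozygotes, and an interaction of 0.62. Its highest level was on heterozygous sucrose, the array with the choroid plexus signal, whose part in this value was not tested. Hsd11b2 and Serpina6 were not well above background on all arrays.

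In the corticotropin-releasing hormone system 6 of 7 genes were measured, without Ucn3. For diet 1 was 1.5-fold or more higher and 1 lower in each genotype, against 5.93% (wild-type) and 5.57% (heterozygous) of all genes. For genotype 0 passed on starch, and 1 was higher and 1 lower on sucrose, against 3.97% and 4.58%. Crh, the hormone itself, had levels of 1.495, 0.988, 1.73 and 0.918, lower on sucrose in both genotypes by log2 changes of -0.60 and -0.91. Blood markers and immediate early genes were also lower on sucrose in both genotypes, and their part in the Crh change was not tested. Crhr2, its second receptor, had levels of 0.162, 0.212, 0.174 and 0.386, a diet change of 0.39 in the wild type and of 1.15 in the heterozygotes, and stood highest on heterozygous sucrose. Ucn, a related peptide, was dim, with levels of 0.0342, 0.0824, 0.0383 and 0.0390. Its diet change was 1.27 in the wild type and 0.03 in the heterozygotes, so wild-type sucrose alone stood apart.

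All 24 other glucocorticoid-induced genes on the list were measured. In wild-type mice 1 of 24 passed 1.5-fold (lower) and in heterozygous mice 2 of 24 passed (1 higher, 1 lower), shares of the same order as the backgrounds of 5.93% and 5.57%. The medians for diet were -0.04 and -0.15, with 13 and 16 of 24 below 0. Lcn2, lipocalin 2 of the acute phase response, had levels of 0.187, 0.0795, 0.133 and 0.0800, with diet changes of -1.24 and -0.74. Cebpd, a transcription factor of the acute phase response, had levels of 1.64, 1.85, 1.60 and 3.29, with diet changes of 0.17 and 1.04. Cebpd therefore stood high on the heterozygous sucrose array, as Nr3c2 and Crhr2 did, and the part of the choroid plexus signal there was not tested.

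Among 13 measured relatives of the members (sulfotransferases, perilipins, SGK kinases and others), 0 passed 1.5-fold for diet in wild-type and 2 in heterozygous mice, both higher, against 5.93% and 5.57% of all genes. Cdkn1c, which encodes the p21 relative p57, had levels of 1.98, 2.66, 1.67 and 3.08 and diet changes of 0.43 and 0.88, opposite in sign to Cdkn1a and highest on heterozygous sucrose. Plin5, a further perilipin, had levels of 0.0814, 0.0849, 0.0792 and 0.150 and diet changes of 0.06 and 0.92, opposite in sign to Plin4 and highest on heterozygous sucrose. It was the 1 relative past 1.5-fold for genotype on sucrose, at 0.82, against 4.58% of all genes. The part of that array's choroid plexus signal in the Cdkn1c and Plin5 values was not tested. The other perilipins on the list had the sign of Plin4, with diet changes of -0.39 and -0.05 for Plin2 and of -0.41 and -0.23 for Plin3, short of 1.5-fold. The relatives as a group had medians of -0.06 and -0.01.

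**Figure D4:**
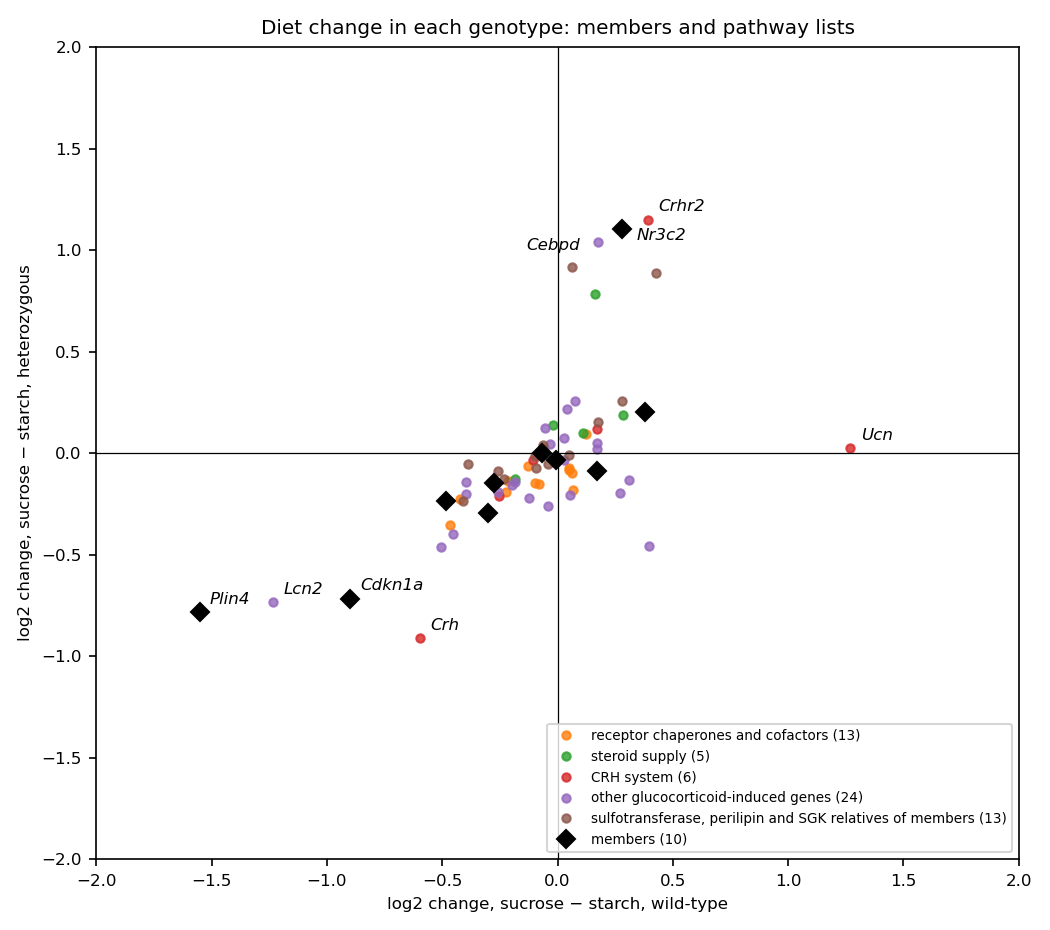
Diet change in wild-type (horizontal axis) against diet change in heterozygous mice (vertical axis), both log2, for the 10 members (diamonds) and 61 measured genes of 5 pathway lists (circles). Most genes lie near the centre, Plin4, Lcn2, Cdkn1a and Crh lie low in both genotypes, and Nr3c2, Crhr2 and Cebpd lie high in heterozygous mice.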

How the data were processed

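Total RNA of prefrontal cortex was measured on 4 one-colour Agilent arrays, 1 per group, grouped by the sample labels. The deposited intensity values came from scanner files of Agilent Feature Extraction 11.5.1.1, per the submitters' processing notes, with background subtraction and detrending within the array, per the file headers. The authors also deposited a series matrix whose ratio values equalled the processed signal divided by each array's 75th percentile. Probe coordinates are on mm9, per the file headers. The exon of each probe was not analysed here.

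Of 62976 spots 59305 were non-control spots, and spots marked as outliers were left out of these. Each processed signal was divided by the 75th percentile of that array's non-control spots and taken to log2, spots of a probe were averaged, and 42094 of 56605 probes well above background on all 4 arrays were kept. The brightest passing probe stood for a gene. A call meant 1.5-fold. The additive fit used limma 3.58.1 in R 4.3.3 and was tested on simulated data. Spot error came from 300 probes printed 10 times and 10 spike-in probes printed 35 times, as the median over the 7 nearest in level. The number of arrays limits the precision.

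The members and lists were chosen with earlier results of these data known, and the hippocampal list was added after the members' values had been seen. The text names all members with every passing probe, pathway list genes past 2-fold, the gene of each pathway list with the largest mean diet change, and Glo1. Single marker genes, Crh, Plin2, Plin3 and Plin5 were chosen after their values were seen. Alternatives were median scaling, quantile normalization, normexp (offset 50), the series matrix, the mean over a gene's probes, no filter on dim probes, only probes above the median signal, and a trended prior for the fit.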

Additional observations from a re-analysis of the deposited data

How the results depend on the processing

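The members past 1.5-fold stayed past it, with the same sign, under all 7 alternatives: Plin4 (diet in both genotypes, genotype on starch, interaction), Cdkn1a (diet in both genotypes) and Nr3c2 (diet in heterozygous mice, genotype on sucrose, interaction). Of these, 3 (both filter settings and the mean over probes) returned the identical value for Plin4 and Cdkn1a, which have 1 passing probe each, and the series matrix is the same signal rescaled, so median scaling, quantile normalization and normexp were the alternatives that could move them. For Nr3c2 the 2 filter settings returned the same value. Plin4 for diet in wild-type mice ranged from -1.55 to -1.42 and the Nr3c2 interaction from 0.62, as the mean over its probes, to 0.85. Signs were not kept by every alternative for Fkbp5 (diet in both genotypes, genotype on starch), Pdzrn3 (diet in wild-type, genotype on sucrose), Nr3c1 and Zbtb16 (genotype on starch), Cdkn1a (genotype on sucrose) and Tsc22d3 (interaction), all within 1.5-fold.

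Over all probes the count past 1.5-fold moved most with the filter and background correction. For diet in wild-type, diet in heterozygous, genotype on starch and genotype on sucrose in turn it was 2516, 2043, 2053 and 1789. It became 795, 768, 522 and 664 with normexp, 7481, 6429, 6940 and 6419 with no filter, and 462, 362, 303 and 265 among probes above the median signal. The share of higher calls moved from 45.5% to 32.6% with normexp for diet in wild-type, from 46.6% to 61.1% above the median signal for genotype on starch, and from 67.5% to 49.9% with no filter for genotype on sucrose. Pathway list genes past 1.5-fold, 3 for diet in wild-type, were 1 with normexp and 1 above the median signal. For diet in heterozygous mice 7 became 4, and for genotype on sucrose 4 became 1, both above the median signal, where 57 and not 61 list genes were tested. The limma fit for diet, with 0 calls, gave 28 with normexp and 1 with a trended prior, none of them a member, and the smallest adjusted p of a member probe was 0.0614 with normexp and between 0.0996 and 0.814 under the others. The cause was not tested. No replicate could be left out. No paired analysis was possible because each group had 1 array of pooled RNA and the labels carry no replicate numbers. The filter on dim probes set what could be seen of 6 member probes.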
